A study of Mus musculus with 10 samples.

Results

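Transforming growth factor beta (TGF-β) signalling and mesenchymal genes were examined in primary cultures of mouse tongue epithelium by bulk RNA-seq. The 10 genes, Tgfb1, Tgfb2, Inhba, Tgfbr1, Tgfbr2, Smad3, Tgfbi, Fn1, Vim and Snai2, were chosen by symbol, and 10 of 10 were present among the 18586 rows of the deposited table. Values are TPM, a transcript abundance per length that is scaled to a common sum in each library. N cells carried Krt14-CreERT, LSL-rtTA and the tetON_H2B-GFP reporter, so that Cre activity was limited to cells that used the Krt14 promoter of basal epithelium. EY cells carried these same 3 transgenes and, in addition, tetON_E6-E7 (oncogenes of human papillomavirus) and tetON_YAP1S127A (a constitutively active form of the transcriptional co-activator YAP). Cells were isolated 15 days after transgene induction and cultured with doxycycline, meant to keep the transgenes active. In the paper's methods, cultured cells were sorted for GFP and then returned to culture. The 6 EY libraries were made from 3 lines (2 from EY3960, 2 from EY4028 and 2 from EY4174), whereas all 4 N libraries were of line N4172 alone. Line and genotype therefore cannot be told apart, and the tests measure only the spread between these libraries, which may be technical.

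TGF-β ligands are secreted in a latent form and are released outside the cell, where they bind the receptor TGFBR2, which recruits and phosphorylates TGFBR1. The active receptor phosphorylates SMAD2 and SMAD3, which enter the nucleus with SMAD4 and change transcription. Activins, dimers of inhibin beta subunits, use their own receptors and the same SMADs. In squamous epithelium the pathway is known both for arresting the cell cycle and for driving epithelial to mesenchymal transition (EMT), in which SNAI, ZEB and TWIST factors lower adhesion genes while vimentin, fibronectin and other matrix genes are raised.

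The cultures were checked against markers of cell types. All 11 marker genes of tongue basal keratinocytes were present, and their summed level ranged from 4339 to 7284 TPM in EY and from 5386 to 6091 TPM in N. Krt5 and Krt14, keratins of the basal layer, made up most of this sum. Epcam, also among the 11, was between 53.1 and 63.3 TPM in EY and between 29.3 and 38.3 TPM in N (adjusted p = 6.74e-05, log2 fold change 0.82). Krt15, another basal keratin, was between 8.70 and 35.3 TPM in EY and between 64.3 and 97.9 TPM in N (adjusted p = 0.0168), and Trp63, the basal transcription factor p63, was between 46.0 and 60.5 TPM in EY and between 70.8 and 99.9 TPM in N (adjusted p = 0.00262, log2 fold change -0.58). Of 10 fibroblast markers 2 were in the table, Col1a1 and Pdgfra, and their sum was between 0.0439 and 0.174 TPM in EY and between 0.0643 and 0.748 TPM in N. Endothelial markers (5 of 8) summed to at most 1.51 TPM and skeletal muscle markers (2 of 8) to at most 0.933 TPM. Melanocyte markers (5 of 7) summed to between 1.52 and 2.25 TPM in EY and between 2.43 and 4.56 TPM in N. Immune markers (5 of 9) summed to between 34.0 and 83.3 TPM, nearly all of it from Cd68 and Cd14, while the leukocyte gene Ptprc was at most 0.347 TPM. Yap1 was between 34.7 and 57.1 TPM in EY and between 17.2 and 20.9 TPM in N. Genes with at least 1 TPM numbered 10852 to 11522 per library, and mitochondrial transcripts made up 14.1% to 20.5%. The depth is unknown, since TPM keep none. In 7 genes below that were screened for outlying libraries, N replicate 4 stood away from its group, and each of these results is given with and without it. Trp63 and the epithelial gene Rab25 were not screened. N replicate 4 was highest in both, at 99.9 and 147 TPM, against at most 75.3 and 118 TPM in the other N libraries. Their fits are given only with it.

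The 10 genes covered a wide range of levels. Snai2 was the most abundant, with a mean of 66.5 TPM over the 10 libraries, above 90.9% of the rows. Tgfb1, Tgfbr2 and Tgfbr1 had means of 16.2, 15.7 and 12.3 TPM, Fn1 and Tgfbi of 9.06 and 8.73 TPM, and Smad3 of 4.91 TPM. Inhba, Tgfb2 and Vim had means of 0.494, 0.164 and 0.142 TPM. These 3 did not reach 1 TPM in at least 4 libraries and stayed out of the tests, so that 7 of the 10 genes were tested among 11630. With limma on log2(TPM + 1), a call required an adjusted p under 0.01 together with a log2 fold change beyond 1 in either direction. Across all genes tested, 1.85% were called higher and 1.70% lower in EY, and the median log2 fold change was 0.03.

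**Figure D1:**
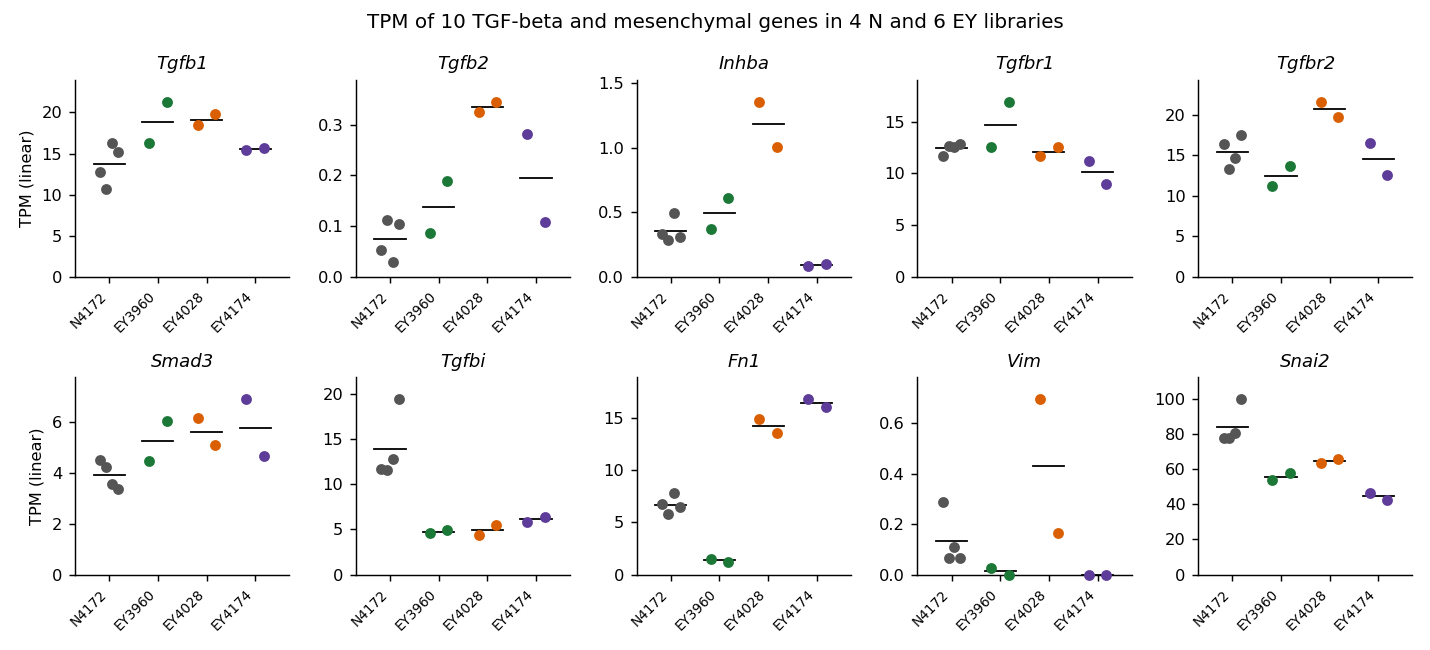
TPM (linear axes, each starting at 0) of the 10 genes in line N4172 (4 libraries) and in lines EY3960, EY4028 and EY4174 (2 libraries each). Points are libraries and bars are line means. Tgfbi and Snai2 lay lower in each EY library than in each N library, Fn1 was split by EY line, and Vim stayed under 1 TPM in each library.

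Of the 7 genes tested, 1 was called between EY and N, Tgfbi, which was lower in EY, and none was called higher. On the adjusted p alone, 2 of 7 passed (Tgfbi and Snai2, both lower in EY), against 11.8% of all genes tested. EY and N libraries did not overlap for the same 2 genes, whereas this held for 20.4% of all genes tested. The ligand, receptor and SMAD genes showed no called difference, and Fn1 was the gene that differed most among EY lines. In bulk RNA, fewer cells of a kind and less RNA per cell cannot be told apart.

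Among the ligands, Tgfb1, the best studied TGF-β ligand, was measured at 16.3 and 21.3 TPM in EY3960, 18.5 and 19.8 TPM in EY4028, and 15.4 and 15.7 TPM in EY4174. The N libraries had 12.7, 10.7, 16.3 and 15.2 TPM. The groups overlapped, with 3 of 6 EY libraries above all N libraries. EY libraries averaged 17.8 ± 2.43 TPM (SD, n = 6) and N libraries 13.7 ± 2.50 TPM (SD, n = 4), and the difference was a log2 fold change of 0.36 ± 0.13 (SE, adjusted p = 0.0639). Tgfb2 was far lower. It was at 0.0867 and 0.188 TPM in EY3960, 0.325 and 0.346 TPM in EY4028, 0.282 and 0.109 TPM in EY4174, and 0.0523, 0.112, 0.0298 and 0.105 TPM in N. Tgfb1 exceeded Tgfb2 by between 54.6-fold and 546-fold within the same library. With no filter on low values, the log2 fold change of Tgfb2 was 0.18 (adjusted p = 0.0911).

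Inhba, which encodes the subunit of activin A, was separated by EY line. It was at 1.35 and 1.00 TPM in EY4028, 0.372 and 0.613 TPM in EY3960, and 0.0817 and 0.0999 TPM in EY4174. N libraries, at 0.330, 0.287, 0.491 and 0.308 TPM, lay between EY4028 and EY4174. With no filter on low values the F test of EY lines gave an adjusted p of 0.00341, which was not read as a call, and the log2 fold change between EY and N was 0.17 (adjusted p = 0.635). Of the 10 listed genes for TGF-β and activin ligands, 7 were in the table and 2, Tgfb1 and Inhbb, were tested, with none called. Inhbb, which encodes another activin subunit, was at 3.26 and 3.47 TPM in EY3960, 4.35 and 4.14 TPM in EY4028, 1.96 and 1.62 TPM in EY4174, and 2.65, 2.50, 2.87 and 2.51 TPM in N. As for Inhba, EY4028 held the highest and EY4174 the lowest line mean.

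Neither receptor gene differed at the threshold between the groups. Tgfbr1, the signalling kinase of the complex, was at 12.5 and 16.9 TPM in EY3960, 11.7 and 12.5 TPM in EY4028, 11.2 and 8.98 TPM in EY4174, and 11.7, 12.6, 12.6 and 12.8 TPM in N. Its log2 fold change was -0.03, with a 95% interval of -0.33 to 0.26 (adjusted p = 0.885). Tgfbr2, which binds the ligand, was at 11.2 and 13.7 TPM in EY3960, 21.6 and 19.7 TPM in EY4028, 16.6 and 12.6 TPM in EY4174, and 16.4, 13.3, 14.7 and 17.5 TPM in N. Its log2 fold change was 0.01, with a 95% interval of -0.37 to 0.38 (adjusted p = 0.979). EY4028 was above all N libraries in both of its libraries and the other EY lines were not. The difference among EY lines did not pass (adjusted p = 0.0337) by limma's F test.

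Smad3, the transcription factor that the receptors phosphorylate, was at 4.50 and 6.05 TPM in EY3960, 6.16 and 5.11 TPM in EY4028, and 6.91 and 4.67 TPM in EY4174. The N libraries had 4.51, 4.23, 3.57 and 3.39 TPM, and 5 of 6 EY libraries were above all of them. The log2 fold change was 0.41 ± 0.13 (SE, adjusted p = 0.0398), which did not pass. The difference from N was 0.34, 0.43 and 0.45 on the log2 scale in EY3960, EY4028 and EY4174.

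Tgfbi was the gene with a called difference between EY and N. It encodes a secreted matrix protein that binds collagens and integrins and is named for its induction by TGF-β. Its level was 4.56 and 4.97 TPM in EY3960, 4.42 and 5.45 TPM in EY4028, and 5.83 and 6.44 TPM in EY4174. The N libraries had 11.7, 11.6, 12.8 and 19.4 TPM, so that each EY library was below each N library. EY libraries averaged 5.28 ± 0.779 TPM (SD, n = 6) and N libraries 13.9 ± 3.73 TPM (SD, n = 4), and the log2 fold change was -1.23 ± 0.15 (SE, adjusted p = 1.80e-04). Without N replicate 4, the highest, the log2 fold change was -1.06 (adjusted p = 2.17e-04). With line as a random block the adjusted p was 0.0159, and with a single mean for each line it was 0.172, neither of which passed. The largest difference between EY lines was 0.31 on the log2 scale and did not pass (adjusted p = 0.488).

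The sequence before the Tgfbi start is shown because Tgfbi was the gene called. It is the 250 bases upstream of the RefSeq start on the plus strand, chr13:56609336-56609585 in GRCm38.p6, 5′ to 3′, with the motif CAGAC or its reverse complement GTCTG, the core of SMAD binding sequences, in capitals.

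Tgfbi promoter: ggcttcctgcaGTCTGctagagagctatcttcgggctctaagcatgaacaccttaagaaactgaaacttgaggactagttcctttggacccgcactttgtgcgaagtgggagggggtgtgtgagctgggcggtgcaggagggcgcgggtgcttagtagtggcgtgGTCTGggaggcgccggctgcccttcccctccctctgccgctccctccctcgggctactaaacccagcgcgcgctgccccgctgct

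The window held this motif at 2 places, which began 239 and 85 bases before the start. Of the 10 genes, 8 had a promoter in the RefSeq table (Snai2 and Fn1 did not), and 4 of these 8, Tgfbi, Tgfb2, Tgfbr1 and Tgfbr2, held CAGAC on either strand. The 8 genes had 9 windows, and of the 2 windows of Tgfbr1 only 1 held the motif. The shares below count windows, not genes. The same motif was in 42.2% of the 32851 promoter windows of the same length, so that a match is a description only. None of the 8 genes held the SMAD palindrome GTCTAGAC (0.167% of all windows), the TEAD motif GGAATG (12.6%), the AP-1 motif TGANTCA (6.75%) or the E-box CAGGTG (17.2%), each searched on both strands. TEAD factors are the DNA-binding partners of YAP, AP-1 often acts beside SMADs, and SNAI and ZEB factors bind the E-box. None of the other motifs contains CAGAC or GTCTG.

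Fn1, which encodes the matrix protein fibronectin, split the EY lines in opposite directions. It was at 1.50 and 1.21 TPM in EY3960, 14.9 and 13.5 TPM in EY4028, and 16.8 and 16.0 TPM in EY4174. The N libraries, at 6.70, 5.76, 7.76 and 6.47 TPM, lay between EY3960 and the other EY lines, with no overlap between lines on either side. EY libraries averaged 10.6 ± 7.28 TPM (SD, n = 6) and N libraries 6.67 ± 0.831 TPM (SD, n = 4). The log2 fold change between EY and N was 0.16 ± 0.70 (SE, adjusted p = 0.894).

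Between the EY lines, Fn1 was the 1 gene of the 7 tested that was called, where 5.12% of all genes tested were called. The largest difference was 2.89 on the log2 scale (adjusted p = 4.33e-07) by limma's F test. EY4028 exceeded EY3960 by 2.69 ± 0.15 (SE) and EY4174 exceeded EY3960 by 2.89 ± 0.15 (SE) on the log2 scale. EY4174 and EY4028 differed by 0.19, with a 95% interval of -0.13 to 0.52. Without line EY3960, the log2 fold change of Fn1 between EY and N was 1.09 (adjusted p = 1.41e-04), and it was then called. Without line EY4028 it was -0.26, and without line EY4174 it was -0.36, so that its direction rested on which lines were included.

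Each EY line was also compared with N, and these comparisons share the 4 N libraries. In EY3960, 2 of the 7 genes were called, Tgfbi and Fn1, both lower, against 7.04% of all genes tested. In EY4028, 1 was called, Tgfbi, against 5.74%, and Fn1, at a log2 fold change of 0.99 (adjusted p = 2.67e-04), was just under the fold threshold. In EY4174, 2 were called, Tgfbi lower and Fn1 higher, against 4.95%. The log2 fold change of Fn1 was -1.70 ± 0.13 (SE) in EY3960 and 1.19 ± 0.13 (SE) in EY4174, with adjusted p of 4.19e-06 and 9.25e-05. The log2 fold change of Tgfbi was -1.34, -1.30 and -1.03 in EY3960, EY4028 and EY4174, with an SE of 0.19 in each line.

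Single libraries decided some of these calls. Tgfbi was not called in EY4028 without EY replicate 2 (adjusted p = 0.0143), nor in EY4174 without EY replicate 3 or EY replicate 6, with adjusted p of 0.0261 and 0.0225. In EY4174 without N replicate 4 its log2 fold change was -0.87. Fn1 was called in EY4028 without EY replicate 5 or N replicate 3, at a log2 fold change of 1.06 in each case. Where a line was left with 1 library, that library was assumed to vary like the others.

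**Figure D2:**
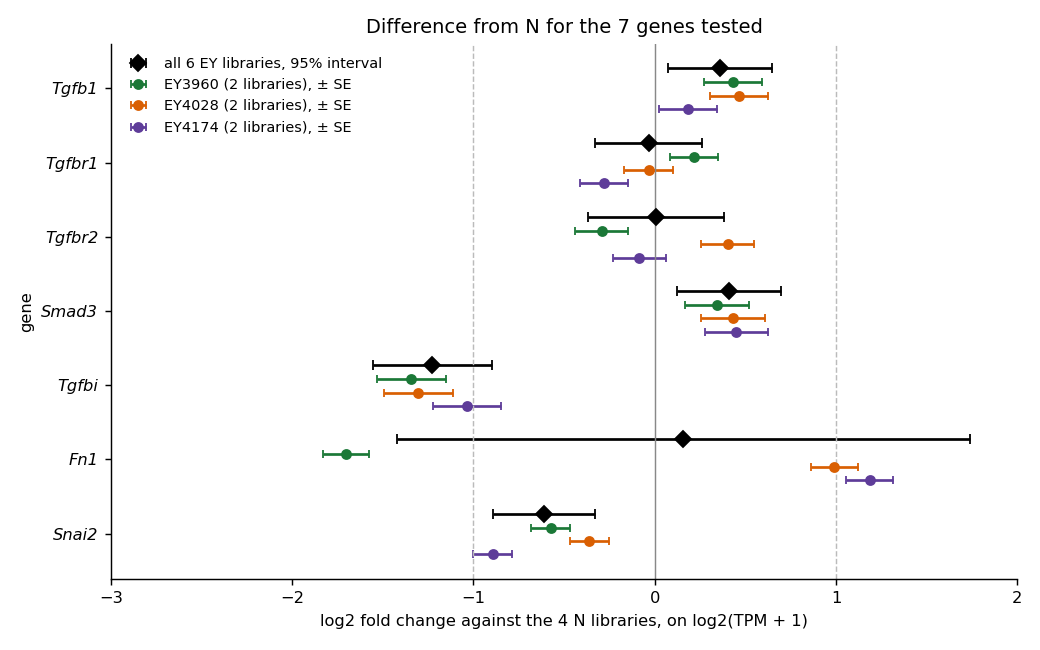
Log2 fold change against the 4 N libraries, on log2(TPM + 1), for the 7 genes tested. Diamonds are all 6 EY libraries with 95% intervals, circles are single EY lines (2 libraries each) with standard errors, and dashed lines mark the fold threshold. Tgfbi lay past the left dashed line in each EY line, and Fn1 lay at -1.70 in EY3960 and at 0.99 and 1.19 in the other EY lines.

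Vim, which encodes the intermediate filament vimentin of mesenchymal cells, was under 1 TPM in all libraries. It was at 0.0278 TPM and listed at 0 in EY3960, at 0.695 and 0.165 TPM in EY4028, listed at 0 in both libraries of EY4174, and at 0.287, 0.0652, 0.111 and 0.0663 TPM in N. The highest value was in EY replicate 2 of line EY4028. With no filter on low values, the log2 fold change was -0.005 (adjusted p = 0.987).

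Snai2, which encodes the repressor SLUG and is normally expressed in basal keratinocytes, was high in all libraries and lower in EY. It was at 53.6 and 57.9 TPM in EY3960, 63.7 and 65.6 TPM in EY4028, and 46.7 and 42.3 TPM in EY4174. The N libraries had 77.5, 77.9, 80.4 and 99.7 TPM, and each EY library was below each N library. EY libraries averaged 55.0 ± 9.27 TPM (SD, n = 6) and N libraries 83.9 ± 10.6 TPM (SD, n = 4). The log2 fold change was -0.61 ± 0.13 (SE, adjusted p = 0.00555), which passed on p and not on fold. Without N replicate 4 it was -0.52 (adjusted p = 0.0157), and the adjusted p was over 0.01 in 6 of the 10 fits that left out a library, namely those without EY replicate 1, EY replicate 3 or any N library. The basal markers Krt15 and Trp63 were likewise lower in each EY library than in each N library, whereas Epcam was higher in each EY library. Of the 11 basal markers, 4 had a positive and 7 a negative log2 fold change. The part of these markers in the difference of Snai2 was not tested. The line means of Snai2 differed from N by -0.57 in EY3960, -0.36 in EY4028 and -0.89 in EY4174 on the log2 scale. The adjusted p were 0.00245, 0.0272 and 1.91e-04, so that EY3960 and EY4174 passed on p and no line on fold. The EY lines did not differ from each other at the threshold (adjusted p = 0.0322).

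The other genes of the pathway were examined in 13 lists. Between EY and N, most listed genes did not pass the test. Bmp3, Bmpr1b, Tnc and Acta2 passed the filter on low values only with the N libraries, where they were high, and Twist1 only with the EY libraries. Some listed genes that were not called also passed only through the group where they were high. The counts and medians of the lists are therefore descriptions and support no direction. The medians below are log2 fold changes over the tested genes of a list, to be read beside the median of 0.03 over all genes. With a single mean for each line, each call between EY and N given below was lost.

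**Figure D3:**
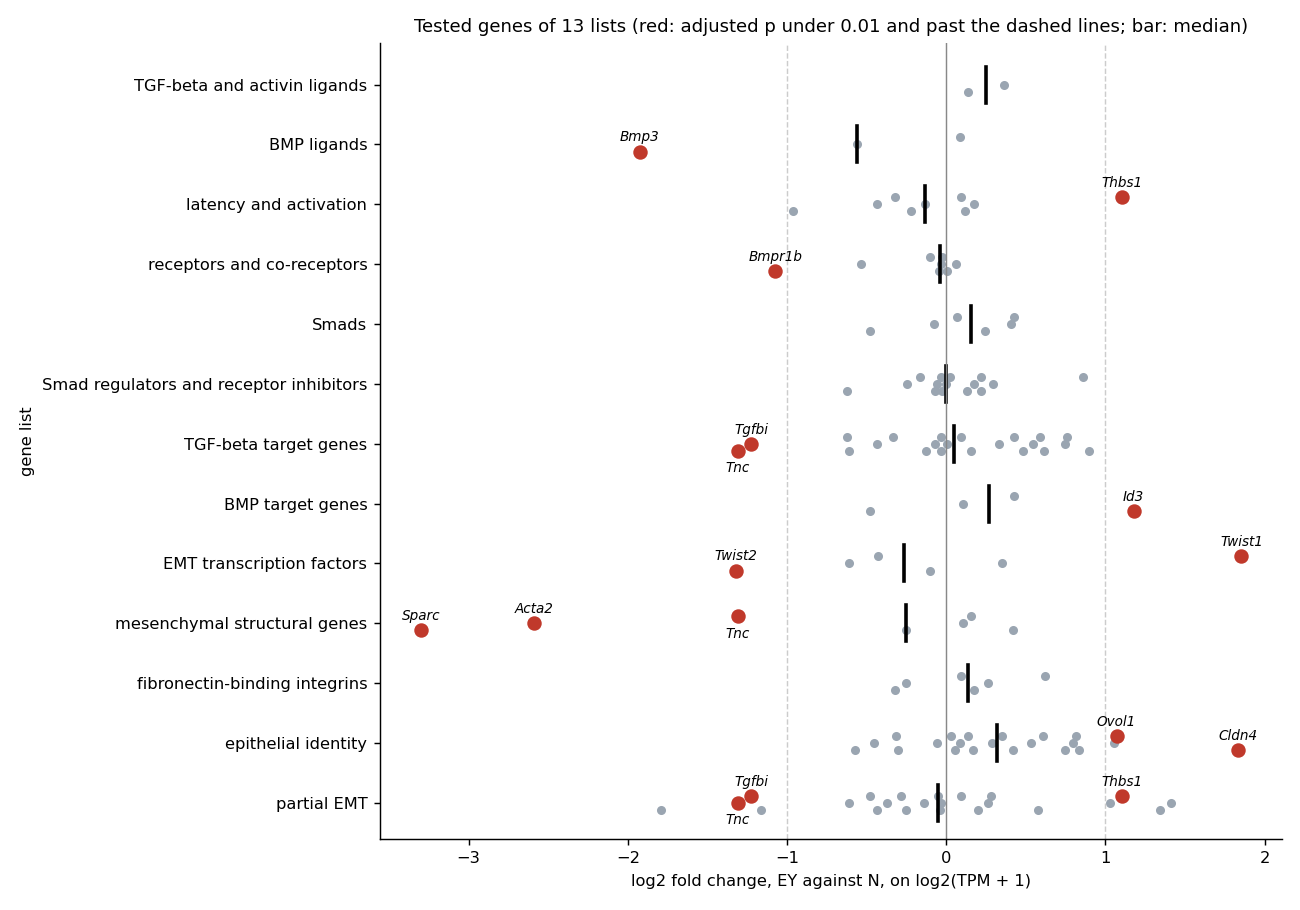
Log2 fold change between EY and N, on log2(TPM + 1), of each tested gene in 13 lists. Each point is a gene, red points were called, black bars are list medians and dashed lines mark the fold threshold. Sparc and Acta2 lay farthest to the left among the called genes, and Twist1 and Cldn4 farthest to the right.

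Genes that hold TGF-β latent or release it (9 tested of 15 listed) had 1 gene called higher, none lower and a median of -0.14. The called gene was Thbs1, which encodes thrombospondin-1, a matrix protein able to activate latent TGF-β. Thbs1 was at 6.73 and 8.24 TPM in EY3960, 15.7 and 14.1 TPM in EY4028, 9.86 and 7.93 TPM in EY4174, and 3.34, 3.66, 3.80 and 6.05 TPM in N. Each EY library was above each N library, and the log2 fold change was 1.10 ± 0.23 (SE, adjusted p = 0.00477). It was 0.98 without EY replicate 2, and the adjusted p was 0.0212, 0.0208 and 0.0195 without N replicate 1, 2 and 3. Without N replicate 4 it was 1.26 (adjusted p = 0.00344). With line as a random block the adjusted p was 0.0690.

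Receptors and co-receptors (8 tested of 14) had none called higher and 1 lower, Bmpr1b, a type I receptor of bone morphogenetic proteins (BMPs), with a median of -0.04. Bmpr1b averaged 0.802 ± 0.528 TPM across EY (SD, n = 6) against 2.68 ± 0.549 TPM across N (SD, n = 4), without overlap. Its log2 fold change was -1.07 ± 0.22 (SE, adjusted p = 0.0045), and with line as a random block it was not called (adjusted p = 0.0599). Its call was lost in 6 of 10 fits with a library removed. These were the fits without EY replicate 1 or 4, with log2 fold changes of -0.97 in both, and without N replicate 1, 2, 3 or 4, with adjusted p of 0.0132, 0.0151, 0.0165 and 0.0148. In the last of these the log2 fold change was -0.97 as well. Bmpr1b passed the filter only with the N libraries, where it was high, so that its test is no support for a direction of the list.

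SMADs (6 tested of 8) had none called, with a median of 0.16. The smallest adjusted p belonged to Smad5, a SMAD of BMP receptors, at a log2 fold change of -0.48 (adjusted p = 0.0313), and to Smad3. SMAD regulators and receptor inhibitors (15 tested of 16) had none called either, with a median of 0.00044. Nedd4l, a ubiquitin ligase that acts on activated SMAD2 and SMAD3, averaged 8.06 ± 1.30 TPM across EY (SD, n = 6) against 4.04 ± 1.12 TPM across N (SD, n = 4), without overlap. Its log2 fold change of 0.86 had an adjusted p of 0.0024, which passed on p and not on fold. Ppm1a, a phosphatase of SMADs, differed by -0.24 on the log2 scale (adjusted p = 0.0513). Its N replicate 4, at 62.9 TPM, lay below the other N libraries, at 80.6 to 83.7 TPM, and without it the value was -0.34 (adjusted p = 0.00220).

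BMP ligands (3 tested of 12) had none called higher and 1 lower, with a median of -0.56. This was Bmp3, a ligand that antagonizes other BMPs, at 0.711 and 0.583 TPM in EY3960, 0.616 and 0.622 TPM in EY4028, 1.61 and 1.23 TPM in EY4174, and 5.74, 6.20, 5.80 and 6.53 TPM in N. The log2 fold change was -1.93 ± 0.16 (SE, adjusted p = 1.06e-05), and it was called in each fit that left out a library and with line as a random block. Of the EY lines only EY4174 reached 1 TPM, so that Bmp3 passed the filter only with the N libraries, where it was high. Its test is therefore no support for a direction of the list.

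BMP target genes (4 tested of 10) had 1 called higher, Id3, an inhibitor of basic helix-loop-helix factors, and none lower, with a median of 0.27. Id3 averaged 12.1 ± 2.74 TPM across EY (SD, n = 6) against 4.82 ± 1.43 TPM across N (SD, n = 4). Its log2 fold change was 1.18 ± 0.20 (SE, adjusted p = 0.00174). Without N replicate 4 it was 0.97, under the fold threshold, and with line as a random block the adjusted p was 0.0530.

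Fst, which encodes follistatin, an inhibitor that binds activin, differed among EY lines. It was at 111 and 122 TPM in EY3960, 176 and 186 TPM in EY4028, 48.4 and 45.5 TPM in EY4174, and 116, 108, 126 and 140 TPM in N. The largest difference among EY lines was 1.93 on the log2 scale (adjusted p = 3.63e-06). Fst was therefore highest in EY4028 and lowest in EY4174, the order also seen in the line means of Inhba and Inhbb. Its log2 fold change between EY and N was -0.29 (adjusted p = 0.665).

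TGF-β target genes (22 tested of 30) had none called higher and 2 lower, Tgfbi and Tnc, with 20 not called and a median of 0.05. On the adjusted p alone, 2 were higher and 3 lower, against 11.8% of all genes tested in either direction. The additional ones, named here after their values were seen, were Plaur, the urokinase receptor, at a log2 fold change of 0.90 (adjusted p = 3.45e-04), Junb, a subunit of AP-1, at 0.62 (adjusted p = 8.12e-04), and Snai2. The targets thus did not move in 1 direction.

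Mesenchymal structural genes (7 tested of 24) had none called higher and 3 lower, Sparc, Acta2 and Tnc, with a median of -0.25. Another 9 genes of the list, Vim, Cdh2 and Col1a1 among them, were under the filter. Sparc, which encodes the matricellular protein osteonectin, was at 15.3 and 15.6 TPM in EY3960, 11.6 and 11.8 TPM in EY4028, 4.47 and 4.71 TPM in EY4174, and 103, 95.1, 106 and 107 TPM in N. Its log2 fold change was -3.30 ± 0.34 (SE, adjusted p = 1.16e-04). Its EY lines also differed from each other, by 1.56 on the log2 scale (adjusted p = 3.86e-06). In the N libraries with Sparc at 95.1 TPM or more, Col1a1 was at most 0.0708 TPM and Vim at most 0.287 TPM. Melanocyte markers summed to between 2.43 and 4.56 TPM in N and between 1.52 and 2.25 TPM in EY. The part of fibroblasts, melanocytes or other cell types in the difference of Sparc was not tested.

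Acta2, smooth muscle actin, averaged 0.176 ± 0.139 TPM across EY (SD, n = 6) against 6.05 ± 0.534 TPM across N (SD, n = 4). The log2 fold change was -2.59 ± 0.13 (SE, adjusted p = 2.44e-07), and each EY library, at 0.354 TPM or less, was below each N library, at 5.46 TPM or more. Without any 1 N library Acta2 fell under the filter and was not tested. Acta2 passed the filter through the N libraries alone, so that it had to be higher in N to be tested, and its test is no support for a direction of the list. With line as a random block, Sparc was called with an adjusted p of 6.51e-04 and Acta2 with 2.91e-05. Skeletal muscle markers summed to 0.0560 to 0.304 TPM in EY and 0.365 to 0.933 TPM in N, and their part in the difference of Acta2 was not tested.

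Tnc, which encodes the matrix protein tenascin-C, was at 0.0287 and 0.0242 TPM in EY3960, 0.325 and 0.223 TPM in EY4028, 1.22 and 0.947 TPM in EY4174, and 2.04, 1.82, 1.99 and 4.58 TPM in N. Its log2 fold change was -1.31 ± 0.27 (SE, adjusted p = 0.00469), and with line as a random block it was not called (adjusted p = 0.0805). Without N replicate 4, the highest, it was -1.08 (adjusted p = 0.0129). It was also not called without N replicate 1, 2 or 3, with adjusted p of 0.0132, 0.0117 and 0.0131, nor without EY replicate 2 or 5, with adjusted p of 0.0107 and 0.0113. Tnc passed the filter only with the N libraries, where it was high, so that its test is no support for a direction of its lists.

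EMT transcription factors (6 tested of 14) had 1 called higher and 1 lower, with a median of -0.27. Both were TWIST factors, basic helix-loop-helix regulators of mesenchymal development. Twist1 was at 2.02 and 2.01 TPM in EY3960, 2.90 and 2.53 TPM in EY4028, 5.92 and 6.30 TPM in EY4174, and 0.150, 0.260, 0.0851 and 0.274 TPM in N. Its log2 fold change was 1.85 ± 0.26 (SE, adjusted p = 5.18e-04), and with line as a random block it was called (adjusted p = 0.00603). Twist1 passed the filter through the EY libraries alone, so that it had to be higher in EY to be tested.

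Twist2 was at 3.52 and 3.60 TPM in EY3960, 2.58 and 2.59 TPM in EY4028, 0.671 and 0.654 TPM in EY4174, and 6.86, 5.50, 6.85 and 7.01 TPM in N. Its log2 fold change was -1.32 ± 0.31 (SE, adjusted p = 0.00991), and with line as a random block it was not called (adjusted p = 0.0572). Its call was lost in 8 of 10 fits with a library removed. The adjusted p ranged from 0.0245 without N replicate 2 to 0.0325 without N replicate 3 among those without an N library, and it was 0.0167 and 0.0166 without EY replicates 2 and 5, and 0.0112 and 0.0105 without EY replicates 3 and 6. EY4174 had the highest Twist1 and the lowest Twist2, and the EY lines differed in both genes, with adjusted p of 6.30e-04 and 1.59e-04.

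Fibronectin-binding integrins (6 tested of 10) had none called, with a median of 0.14. Itga3, whose protein is best known in a laminin receptor, was at 48.3 and 53.8 TPM in EY3960, 93.0 and 90.4 TPM in EY4028, 92.0 and 74.1 TPM in EY4174, and 43.8 to 49.5 TPM in N, and its log2 fold change was 0.62 (adjusted p = 0.0316). Itgb1, the shared beta subunit, averaged 361 ± 57.3 TPM across EY (SD, n = 6) against 301 ± 54.7 TPM across N (SD, n = 4), and its log2 fold change was 0.26 (adjusted p = 0.187). N replicate 4, at 382 TPM, was above the other N libraries, at 267 to 285 TPM, and without it the value was 0.38 (adjusted p = 0.0514).

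Epithelial identity genes (22 tested of 22) had 2 called higher, none lower and a median of 0.32. On the adjusted p alone, 7 were higher and 1 lower, against 11.8% of all genes tested in either direction. Named after their values were seen, Epcam and Rab25 had the smallest adjusted p of the list, at 6.74e-05 and 1.18e-04. Their log2 fold changes, 0.82 and 0.84, were under the fold threshold. The 1 lower gene was Trp63, at -0.58 (adjusted p = 0.00262). Cldn4, a claudin of tight junctions, was at 54.0 and 55.7 TPM in EY3960, 28.7 and 26.8 TPM in EY4028, 15.1 and 14.2 TPM in EY4174, and 7.22, 6.04, 7.30 and 8.51 TPM in N. Its log2 fold change was 1.83 ± 0.39 (SE, adjusted p = 0.00795), and with line as a random block it was not called (adjusted p = 0.0414). The EY lines differed by 1.84 on the log2 scale (adjusted p = 2.05e-05). The adjusted p was 0.0271, 0.0306, 0.0266 and 0.0163 without N replicate 1, 2, 3 and 4, and 0.0179 and 0.0171 without EY replicates 2 and 5.

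Ovol1, a repressor that favours the epithelial state, averaged 5.58 ± 2.48 TPM across EY (SD, n = 6) against 2.02 ± 0.673 TPM across N (SD, n = 4). Its log2 fold change was 1.07 ± 0.25 (SE, adjusted p = 0.00937), and with line as a random block it was not called (adjusted p = 0.0910). Its call was lost in 8 of 10 fits with a library removed, with adjusted p of 0.0346, 0.0363 and 0.0316 without N replicates 1, 2 and 3, and of 0.0104 to 0.0142 without EY replicates 1, 2, 3, 4 or 5. Ocln, which encodes occludin, was not called between EY and N, where its log2 fold change was 1.06 (adjusted p = 0.136). Among EY lines it differed by 2.29 on the log2 scale (adjusted p = 1.01e-05), at 13.6 and 14.2 TPM in EY3960, 5.50 and 5.27 TPM in EY4028, 2.14 and 1.93 TPM in EY4174, and 1.67 to 2.39 TPM in N.

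Partial EMT genes (23 tested of 28) had 1 called higher, Thbs1, and 2 lower, Tgfbi and Tnc, with a median of -0.05. Between EY lines, 6 of the 23 were called, against 5.12% of all genes tested, and the median does not show such differences. Another 5 were under the filter, Inhba and Vim among them. The members of this list that were called between EY and N are secreted matrix or matricellular proteins, and they moved in both directions.

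**Figure D4:**
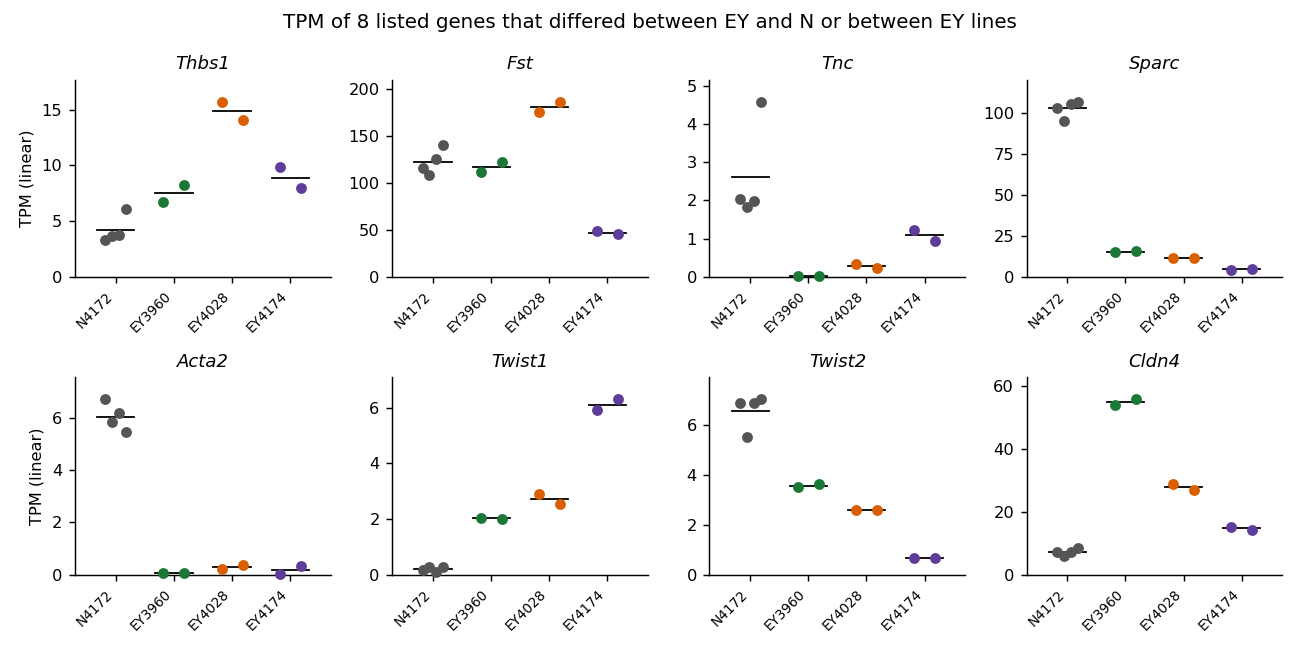
TPM (linear axes, each starting at 0) of 8 listed genes in line N4172 (4 libraries) and in 3 EY lines (2 libraries each). Points are libraries and bars are line means. Sparc and Acta2 were low in each EY library, Twist1 was higher and Twist2 lower in each EY library than in each N library, and Fst and Cldn4 were separated by EY line.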

How the data were processed

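Primary cultures of tongue epithelium were profiled by poly(A) RNA-seq in 6 EY and 4 N libraries. Per the labels' processing notes, the authors used STAR 2.7.9, SAMtools 1.7, HTSeq 0.13.5 and DESeq2 1.34.0 with build GRCm39. The deposited table holds TPM computed by the authors. Their methods also describe a separate Kallisto quantification against a human transcriptome for gene set enrichment, and the table does not state which step its TPM came from. Each row was above 0 in at least 6 libraries, so genes detected in N alone could not appear. TPM keep no depth, so no interval from counts was given.

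TPM were analysed as log2(TPM + 1) with limma 3.58.1 (R 4.3.3; trended, robust variances) for genes that reached 1 TPM in 4 or more libraries. These fold changes understate differences of low genes. Benjamini-Hochberg adjustment covered all 11630 genes tested. EY was compared with N. EY lines were compared with each other by an F test and each with N in a fit of 4 line means, where a called difference among lines also required over 1 between a pair of lines. The main fit of EY against N and the fit of 4 line means were tested on simulated data. For EY against N, the simulated data held no difference between EY lines. The other steps were not tested in this way. Replicates were numbered in label order within groups: EY replicates 1 and 4 are line EY3960, 2 and 5 are EY4028, and 3 and 6 are EY4174. Alternatives were another pseudocount, other filters and scalings, a constant prior variance, the adjusted p alone, blocks, line means, and leaving out each library and each EY line. Promoters were taken from a RefSeq table of GRCm38.p6.

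The genes and lists were chosen with earlier results of these data known. Genes named were the 10 chosen, each called gene of a list, the 2 genes with the smallest adjusted p of a list with none called, and the 3 listed genes that differed most clearly among EY lines. A gene list and some genes are not reported here.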

Additional observations from a re-analysis of the deposited data

Results flagged for a closer look

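Among 58 sets of values (29 named genes in 2 groups), 10 held a library farther from its neighbours than Dixon's 95% limit, where chance flags about 1 in 20 groups. N replicate 4 was the library in 7 of them. It was highest in Tgfbi (19.4 TPM), Snai2 (99.7 TPM), Thbs1 (6.05 TPM), Tnc (4.58 TPM) and Itgb1 (382 TPM), and lowest in Ppm1a (62.9 TPM) and Id3 (2.68 TPM). N replicate 2 was lowest in Twist2 (5.50 TPM) and Ocln (1.67 TPM). EY replicate 2 was highest in Vim (0.695 TPM).

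In 7 of the 29 named genes, the EY lines differed by the F test together with a difference of over 1 between a pair of lines. The largest difference between lines on the log2 scale was 2.89 for Fn1, 1.24 for Twist1, 1.46 for Twist2, 1.56 for Sparc, 1.84 for Cldn4, 1.93 for Fst and 2.29 for Ocln. The cell type markers are outside these 29 genes. Among them Krt15, Cd68 and Cd14 also differed in this way, by 1.89, 1.23 and 1.12.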

How the results depend on the processing

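Leaving out each library in turn kept the EY against N count of called members at 1 and gave 295 to 444 called genes in all, against 413. Between EY lines it gave 400 to 716 genes, against 596, and 1 member. Members called were 2 in EY3960, 0 to 2 in EY4028 and 1 to 2 in EY4174. The fold change of Tgfbr1 ranged from -0.124 to 0.0453, of Tgfbr2 from -0.0834 to 0.0948 and of Fn1 from -0.0533 to 0.548. On the adjusted p alone, 1377 genes and 2 members passed between EY and N, 994 genes between EY lines and 2 members in EY4028. Snai2 then also passed in EY3960 and EY4174. With at least 1 TPM in every library, 216 genes were called between EY and N and 350 between EY lines. A random block for line gave 203 genes and 0 members, and line means 2 genes and 0 members, with fewer independent units by construction. Without EY3960, 2 members were called between EY and N. In EY4028, 2 members were called with a pseudocount of 0.1 or without mitochondrial transcripts. The direction turned for Tgfbr1 without EY4174 (0.0905), and for Tgfbr2 by median-of-ratios scaling (-0.0246), upper-quartile scaling (-0.0239), without mitochondrial transcripts (-0.0185) and without EY4028 (-0.189). For Fn1 it turned without EY4028 (-0.258) and without EY4174 (-0.355). The cause of these changes was not tested.

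Sample numbers showed no strong pairing of the libraries (correlations of deviations from line means of -0.15 to 0.10 over 12 pairs). Both libraries of an EY line deviate from their mean by equal and opposite amounts. Each pair of EY lines therefore gave the same correlation for both sample numbers, and the 12 values are not all distinct. With sample numbers as a replicate block, 221 genes and 1 member were called. Tgfbi was then at -1.02 (adjusted p 0.00570), and Snai2 at -0.51.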

Other observations

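A pair of genes outside the naming rule, singled out after their values were seen, stood apart in single libraries or lines. Zeb1, an EMT transcription factor, was at 8.80 TPM in N replicate 1 and between 0.0251 and 0.148 TPM in the other N libraries, and it was between 0.0612 and 0.165 TPM in EY. Pdpn, which encodes podoplanin and belongs to the partial EMT list, was at 3.15 and 2.84 TPM in EY4028, the line in which Inhba was also highest, and at most 0.152 TPM in the other 8 libraries. Neither gene passed the filter on low values.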
